A study of Mus musculus with 12 samples.

Results

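Pdk4 and Pdp1 encode the kinase and the phosphatase that switch pyruvate dehydrogenase off and on, and 8 further genes of fuel and amino acid metabolism are described with them: Aldh1b1, Decr1, Slc25a13, Slc25a51, Aco1, Asns, Aass and Nadk2. These 10 genes were taken from a table of 56923 rows, 1 per Ensembl gene identifier. They were chosen by symbol, because their rows lie in 4 stretches of chromosomes 4, 6 and 15 where the level of the rows follows the annotated exons, and fold changes of Pdk4, Aldh1b1 and Asns were already known when the set was put together. All 10 had a row and all 10 passed the filter on low values, which 349 of the 1084 rows in these stretches did.

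RNA came from brain sections of wild-type mice held for 5 hours in artificial cerebrospinal fluid (aCSF), a buffered salt solution used to keep slices alive, or in aCSF to which L-fucose, a deoxy sugar found on glycoproteins and glycolipids, had been added. Each condition had 6 libraries, aCSF 1 to 6 and L-fucose 1 to 6. Sex, age, strain, brain region and L-fucose concentration could not be taken from the sources used here, and no label says whether the 6 samples of a group came from separate animals, so p-values measure the spread between these samples, which may be technical. Values below are normalized reads, read numbers scaled by 1 size factor per library.

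Pyruvate dehydrogenase, in the mitochondrial matrix, turns pyruvate from glycolysis into acetyl-CoA and so decides how much glucose carbon enters the citrate cycle. Phosphorylation by the kinases Pdk1 to Pdk4 shuts the complex down, and the phosphatases Pdp1 and Pdp2 reopen it. Pdk4 is the kinase whose transcript is known to respond most to fasting, glucocorticoids and fatty acids, while Pdp1 is the calcium-stimulated phosphatase of tissues such as muscle and brain. Of the other genes, Slc25a13 and Slc25a51 carry reducing equivalents and NAD into mitochondria, and Nadk2 makes mitochondrial NADP. Decr1 and Aldh1b1 take part in fatty acid and aldehyde oxidation. Aco1 acts on citrate, Asns makes an amino acid and Aass breaks one down.

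Library totals ran from 9191687 to 18563078 reads, with a median of 11168285. aCSF 5 and aCSF 6 stood apart, with counts in 14340 and 14856 rows, where the other 10 libraries had them in at least 16514, and with the highest mitochondrial shares of reads, so the differences are also given without them. Names were compared with position because many rows elsewhere in the table do not hold the level their name leads one to expect. In windows of 81 rows around each gene, the level correlated with overlap of protein-coding exons at r = 0.743 to 0.811 with no displacement. The stretches were chosen for this very match, so a high r was built in and is no independent check of the names. Displacing the rows in steps of 100 bp, up to 5000 bp either way, gave no higher r for 5 of the 10 genes, Pdk4, Aldh1b1, Slc25a13, Slc25a51 and Asns, and a best r at 100 bp for Pdp1 and -100 bp for Aco1. The best r was at 200 bp for Decr1 (0.827 against 0.774 at none), at -400 bp for Aass (0.821 against 0.776) and at 900 bp for Nadk2 (0.789 against 0.743). Around Decr1 even -1500 bp gave 0.789, more than no displacement. In the windows of Decr1, Aass and Nadk2 the match was thus best away from the annotated place. The r belongs to a window of 81 rows, not to a gene, so it cannot show whether a single row is rightly named. Nearby genes also share rows, and the windows of Aldh1b1 and Slc25a51 gave the same values. Tissue identity was checked with neuronal markers in the same stretches, all 11 of which were tested and present, among them the growth cone protein Basp1 at 20303 to 27203 in the 12 libraries.

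Per length, the 10 genes spanned a wide range of levels, given here as the mean over 12 libraries of normalized reads per kb of exon. Asns, at 1519, and Pdp1, at 1051, were the most abundant, followed by Slc25a51 at 599. Pdk4 at 306 and Nadk2 at 283 came next, then Aco1 at 194 and Decr1 at 193. Aldh1b1 had 110.4, Aass 43.2 and Slc25a13 25.9. Among the 349 tested genes of the 4 stretches, Asns ranked 19th, Pdp1 32nd, Pdk4 80th and Slc25a13 277th. Neighbours in this order kept their places in all 12 libraries except for 3 pairs. Pdk4 was above Nadk2 in 7 of 12 libraries and Aco1 above Decr1 in 7 of 12, so neither pair was separated beyond the spread of the libraries, and Aass was above Slc25a13 in 11 of 12.

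**Figure D1:**
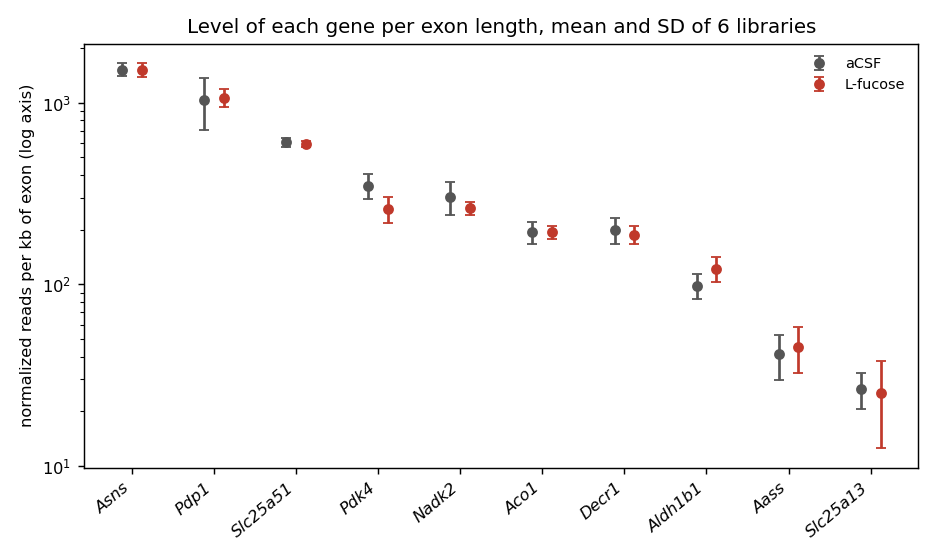
Normalized reads per kb of exon (log axis) for each of the 10 genes, with points at the mean and bars at the SD of 6 libraries in aCSF (grey) and L-fucose (red). Asns and Pdp1 are the most abundant per length and Slc25a13, at 25.9 over all libraries, the least.

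Setting the L-fucose libraries against the aCSF libraries shows which transcripts the added sugar goes with, and none of the 10 genes passed the test. With limma on log2(value + 1), a linear model with variances shared across all 10787 tested rows, adjusted p-values (Benjamini-Hochberg over all tested rows, two-sided, threshold 0.05) ran from 0.827 to 0.995 for the 10 genes. Of all 10787 tested rows 0 (0%) passed with limma, with 643 (5.96%) at an unadjusted p under 0.05, and edgeR with TMM factors also gave 0, with 602 (5.58%) unadjusted. DESeq2 called 1 row (0.00927%), Gabrr2, which is not one of the 10, with 691 (6.41%) unadjusted. The log2 fold changes, taken as L-fucose minus aCSF and understated for low genes by the added 1, were negative for 6 of the 10 and positive for 4, with a median of -0.01, beside 0.01 for all tested rows. An unadjusted p under 0.05 was found for 1 gene with a negative value, Pdk4, against a background of 2.79% of tested rows (6.88% within the 4 stretches), and for 1 with a positive value, Aldh1b1, against 3.17% (1.43%). Without aCSF 5 and 6 there was 1 negative, Pdk4, with a background of 5.89%, and there were 2 positive, Pdp1 and Aldh1b1, with 5.33%. Because values of Pdk4 and Aldh1b1 were known when the genes were chosen, these counts are a description. The groups overlapped in every one of the 10 genes, and groups without overlap occurred in 0.287% of tested rows.

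**Figure D2:**
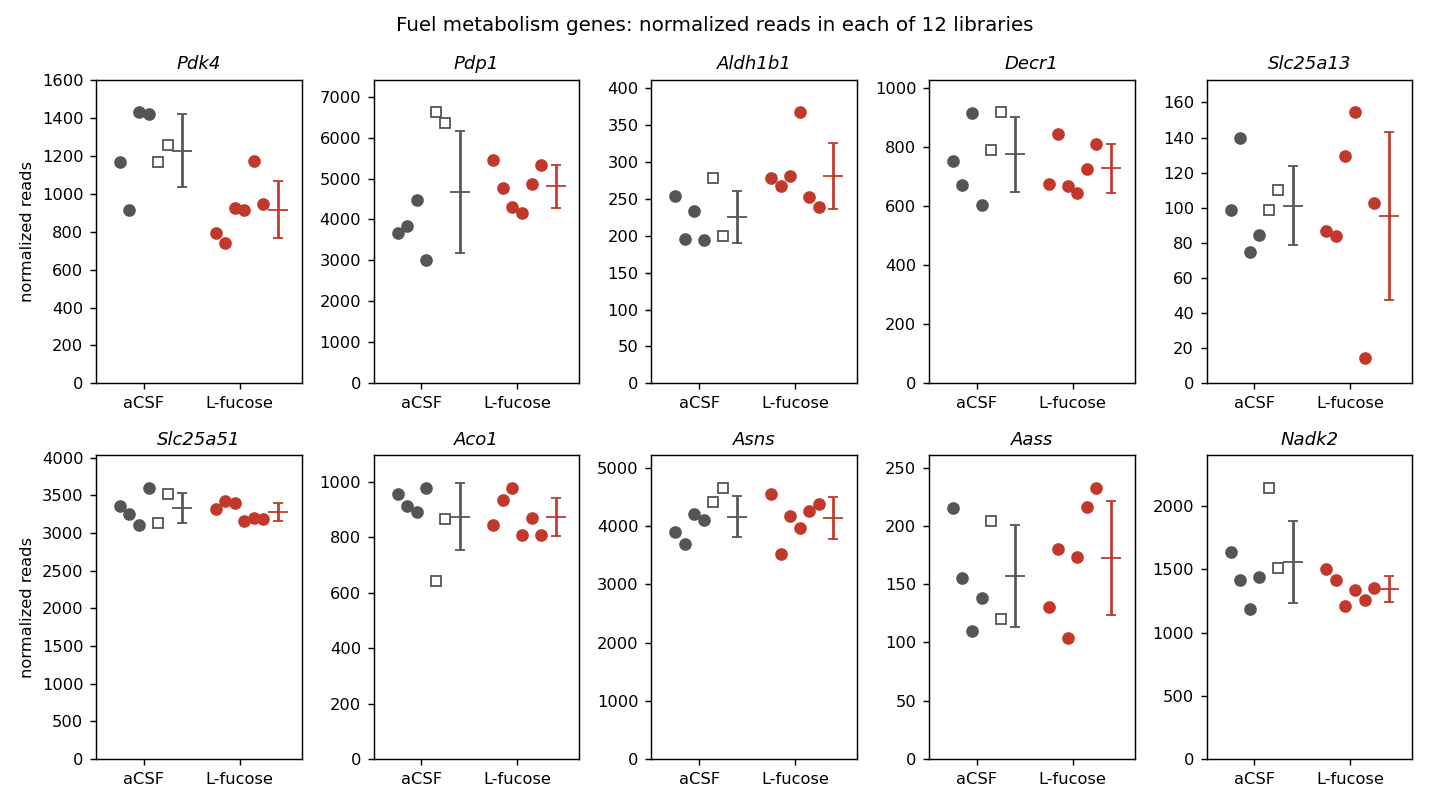
Normalized reads of each gene in each library, aCSF in grey and L-fucose in red, with the mean and SD of 6 libraries as the bar at the right of each group and open squares for aCSF 5 and 6. Pdk4 has 4 of 6 L-fucose values within the aCSF range and the other 2 below it, Pdp1 is highest in aCSF 5 and 6, and 1 library, L-fucose 5, is far below the rest for Slc25a13.

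Pdk4 averaged 917 ± 151 in L-fucose against 1229 ± 193 in aCSF (mean ± SD, 6 libraries each), a difference of means of -25.4%. In aCSF the 6 libraries in order held 1171, 914.5, 1432, 1425, 1170.1 and 1260.3, and in L-fucose 793.6, 740.8, 928.0, 916.8, 1176 and 947.3. Every one of the 6 L-fucose values lay under the aCSF median, a pattern shared by 7.92% of tested rows, and L-fucose 1 and 2 lay under the lowest control. L-fucose 5 was the highest of its group, at the level of aCSF 1 and 5, and aCSF 2 was the lowest control. On the log2 scale the difference was -0.42 (SE 0.13, 95% interval -0.68 to -0.16), and limma gave an unadjusted p of 0.00314, adjusted 0.827. With aCSF 5 and 6 left out it was again -0.42 (-0.71 to -0.13), with an adjusted p of 0.326. The fold change was known when Pdk4 was chosen, so these intervals and p-values are a description. Pdk4 (ENSMUSG00000019577) lies on the minus strand of chromosome 6 from 5483351 to 5496309 in GRCm38, with 3511 exonic bases in 11 merged exons, and shares none of them with another annotated gene.

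The stretch around the Pdk4 start is shown because control of this kinase is known to act largely on its transcription. It runs from 250 bases before to 20 bases after the RefSeq start, at chr6:5496259-5496528 in GRCm38.p6, read on the minus strand, with capitals for the sole match to CCAAT, here on the opposite strand.
Pdk4: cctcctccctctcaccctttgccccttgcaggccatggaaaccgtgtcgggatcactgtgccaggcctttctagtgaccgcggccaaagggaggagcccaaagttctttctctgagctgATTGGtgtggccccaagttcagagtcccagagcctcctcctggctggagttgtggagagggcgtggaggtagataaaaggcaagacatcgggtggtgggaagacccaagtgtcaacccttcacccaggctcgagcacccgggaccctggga
Of the 10 genes, 6 had such a window in RefSeq's table for this build: Pdk4, Aldh1b1, Slc25a13, Aco1, Asns and Aass. Both strands were searched, and overlaps between motifs were allowed. CCAAT was found in 35.4% of all 32851 windows and in 3 of these 6, Pdk4, Slc25a13 and Aass. The forkhead letters TGTTTAC, held by 3.38% of windows, the glucocorticoid receptor palindrome of AGAACA, any 3 bases and TGTTCT, held by 0.00913%, and the nuclear receptor repeat of AGGTCA, any 1 base and AGGTCA, held by 0.0335%, had no match in any of the 6. Letters this rare would seldom match in 6 short windows, so the lack of a match says little about these genes. Looser forms of these 3 motifs and bases beyond the windows were not searched. The E-box CACGTG, in 6.57% of windows, had a match in Slc25a13 alone.

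Pdp1 showed no such offset over all libraries, with 4814 ± 522 in L-fucose against 4663 ± 1488 in aCSF (mean ± SD, 6 libraries each). The aCSF libraries held 3679, 3848, 4475, 3007, 6619 and 6349, and the L-fucose libraries 5452, 4765, 4303, 4166, 4865 and 5330.1. aCSF 5 and 6 were the highest of the 12 and the other 4 aCSF libraries reached at most 4475, so that the aCSF group enclosed the L-fucose group. Even so, all 6 L-fucose libraries were above the aCSF median, as in 6.22% of tested rows. Its log2 fold change was 0.10 (SE 0.15, interval -0.22 to 0.42, limma adjusted p 0.945). Without aCSF 5 and 6 it was 0.37, with an interval from 0.14 to 0.59, an unadjusted p of 0.00266 and an adjusted p of 0.315. In that comparison aCSF averaged 3752 ± 604 (n = 4), and 4 of 6 L-fucose libraries were above the highest of those 4. Leaving out the highest controls by itself moves this value up. Without aCSF 4, the lowest, the value was -0.02, and with edgeR TMM on all libraries it was 0.05. Pdp1 (ENSMUSG00000049225) lies on the minus strand of chromosome 4 from 11958184 to 11966452 in GRCm38, with 4507 exonic bases.

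The ratio of Pdk4 to Pdp1 reads within a library does not depend on its size factor. Its log2 averaged -2.40 ± 0.30 in L-fucose against -1.88 ± 0.53 in aCSF (mean ± SD, 6 libraries each). In aCSF the values were -1.65, -2.07, -1.64, -1.08, -2.50 and -2.33, and in L-fucose -2.78, -2.68, -2.21, -2.18, -2.05 and -2.49. Thus aCSF 4 had 0.474 Pdk4 reads per Pdp1 read and L-fucose 1 had 0.146, the extremes of the 12 libraries. The 6 L-fucose ratios all lay under the aCSF median, 2 of them also under the lowest control, aCSF 5. The difference of means was -0.52. Without aCSF 5 and 6, which have the lowest control ratios, so that leaving them out by itself widens the gap, it was -0.79, and 5 of 6 L-fucose libraries were then under the lowest control. No p or interval is given for this ratio, as it combines genes chosen with their values known.

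**Figure D3:**
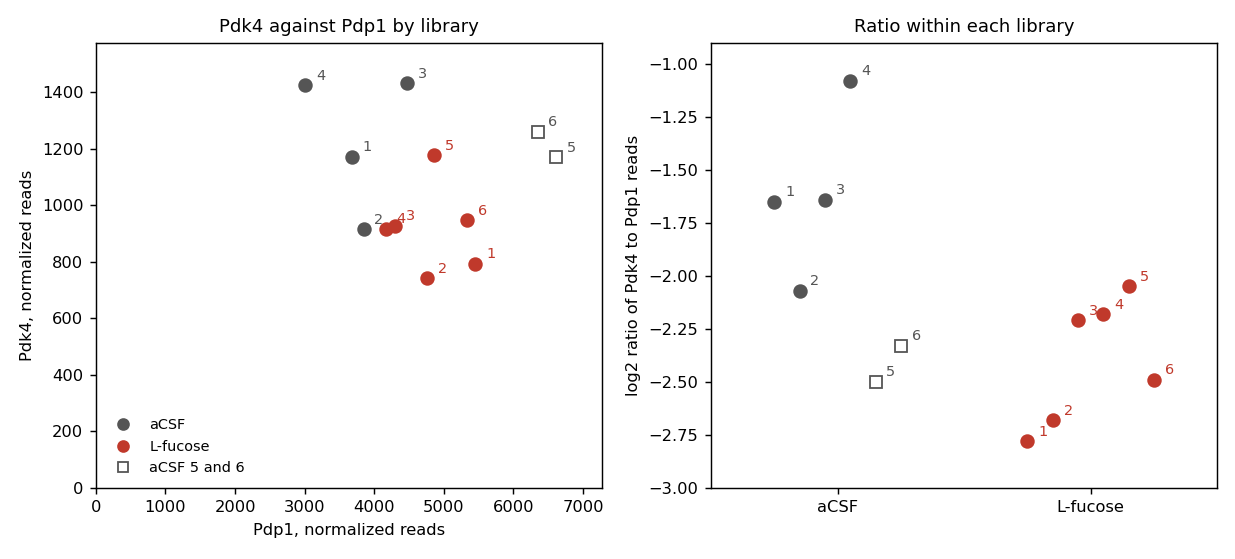
Left, Pdk4 against Pdp1 in normalized reads, 1 point per library, with replicate numbers beside the points. Right, the log2 ratio of Pdk4 to Pdp1 reads in each library, where the L-fucose libraries (red) lie between -2.78 and -2.05 and the aCSF libraries (grey, with open squares for aCSF 5 and 6) between -2.50 and -1.08.

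Markers of several cell types lay in the stretches, and in bulk tissue fewer cells of a type and less RNA per cell cannot be told apart. Of 7 ependymal and motile cilium genes, 6 had negative and 1 a positive fold change. The median fold change was 0.01 over all tested rows and -0.05 over those in the stretches. The summed level of the 7 genes was 559.1 to 703.3 in L-fucose and 704.1 to 1028 in aCSF, ranges close together but without overlap. The log2 ratio of mean sums, L-fucose over aCSF, was -0.42, and -0.44 without aCSF 5 and 6. Among single tested rows, 0.287% had groups without overlap, a share that does not apply to a sum of 7 related genes. Spag1, the most abundant of the 7, had a log2 fold change of -0.04. The choroid plexus marker Prlr ran from 104.4 to 374.0 in L-fucose and from 169.2 to 581.9 in aCSF. The endothelial genes Cav1 and Cav2 summed to 1269 to 1783 and 1525 to 2152, and the immune genes Lyn and Il7r to 276.9 to 498.4 and 371.3 to 565.4. Ptprz1 of astrocytes and oligodendrocyte precursors ran from 4603 to 5845 in L-fucose and from 5176 to 7468 in aCSF. Fibroblast genes summed to 885.6 to 1045 and 858.2 to 1084, with Osr2 at a mean under 10, and the 11 neuronal genes, 7 positive and 4 negative, to 52468 to 58349.7 and 47910.4 to 57799.8. None of the 26 tested markers passed in limma, and the defining markers that reached 0 in any library were Il7r and Osr2. With aCSF 5 and 6 left out, the log2 ratio went from -0.31 to -0.21 for Ptprz1, from -0.16 to -0.02 for the endothelial genes, from -0.60 to -0.77 for Prlr, from -0.24 to -0.22 for the immune genes, from -0.01 to 0.02 for the fibroblast genes and from 0.09 to 0.15 for the neuronal genes. The part of these levels in the Pdk4 difference was not tested.

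Among the oxidation enzymes, Aldh1b1, a mitochondrial aldehyde dehydrogenase, averaged 281 ± 45.2 in L-fucose against 226 ± 35.2 in aCSF (mean ± SD, 6 libraries each). The aCSF libraries held 254.4, 195.8, 233.9, 194.4, 278.2 and 199.4, and the L-fucose libraries 278.0, 267.6, 281.3, 367.7, 253.3 and 239.3. All 6 L-fucose values were above the aCSF median, and 2 of them, in L-fucose 3 and 4, were above the highest control. This came to 0.31 on the log2 scale (SE 0.15, interval 0.0040 to 0.62, unadjusted p 0.0474, limma adjusted p 0.835). L-fucose 4 lay far from the other 5, and without it the value was 0.23. With aCSF 5 and 6 left out it was 0.35, with an adjusted p of 0.421. The fold change of Aldh1b1 was also known when the gene was chosen, so its interval and p-values are a description. Aldh1b1 (ENSMUSG00000035561) is on chromosome 4 from 45799022 to 45804604 in GRCm38, on the plus strand.

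Decr1, the mitochondrial 2,4-dienoyl-CoA reductase needed to oxidize polyunsaturated fatty acids, had 726 ± 82.0 in L-fucose against 774 ± 127 in aCSF (mean ± SD, 6 libraries each). L-fucose libraries ran from 643.4 to 842.3 around a median of 699, inside the aCSF range of 602.4 to 916.4. Its log2 fold change was -0.08 (interval -0.33 to 0.17, limma adjusted p 0.939) and -0.01 without aCSF 5 and 6. Decr1 (ENSMUSG00000028223) is on chromosome 4 from 15917240 to 15945507.

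Of the 2 mitochondrial carriers, Slc25a51, which brings NAD into mitochondria, had the smallest spread of the 10 genes. It held 3354, 3244, 3110.5, 3596, 3132 and 3520.2 in aCSF and 3317, 3422, 3400.3, 3155, 3197 and 3179 in L-fucose. Its coefficient of variation was 6.05% in aCSF and 3.58% in L-fucose. The medians were 29.4% and 24.3% over all tested rows, and 18.9% and 15.0% over those in the stretches. Both medians include rows of much lower level, and no comparison among rows of like level was made. The means were 3278 ± 117 in L-fucose against 3326 ± 201 in aCSF (mean ± SD, 6 libraries each), and the log2 fold change of -0.02 had an interval from -0.18 to 0.14 (limma adjusted p 0.978, and -0.02 again with aCSF 5 and 6 left out). Slc25a51 (ENSMUSG00000045973) is on chromosome 4 from 45395923 to 45408766, and 2.27% of its exonic bases are shared with the small RNA gene Gm25692.

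Slc25a13, or citrin, exchanges aspartate for glutamate across the inner membrane in the malate-aspartate shuttle, a task that its paralog Slc25a12 is known to perform in most neurons. It was the least abundant of the 10 per length, and its coefficient of variation was 22.2% in aCSF and 50.2% in L-fucose. aCSF libraries held 98.54, 139.5, 75.0, 84.61, 98.72 and 110.1, and L-fucose libraries 86.8, 83.93, 129.5, 154.4, 14.53 and 102.8. L-fucose 5, with 16 reads, was at 13.0% of the mean of the other 5 L-fucose libraries. The 8 nearest tested rows, 4 on each side, were at 64.8% to 143% by the same measure, so the low value was not shared by the neighbourhood. A lowest library exceeded at least 5 times by the next lowest occurred in 5 of 6065 rows (0.0824%) with the other 11 libraries at 50 or more, a rule set after this value was seen. Group means were 95.3 ± 47.8 in L-fucose against 101 ± 22.4 in aCSF (mean ± SD, 6 libraries each). The wide interval of the log2 fold change of -0.34 ran from -1.18 to 0.49 (limma adjusted p 0.933), and the value was -0.31 without aCSF 5 and 6 and 0.13 without L-fucose 5. Its size also depended on the fit, at -0.09 with edgeR TMM and with DESeq2 on the recovered reads. The direction of Slc25a13 therefore rests on 1 library. Slc25a13 (ENSMUSG00000015112) is on chromosome 6 from 6041218 to 6217173.

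Nadk2, the mitochondrial NAD kinase, averaged 1345 ± 106 in L-fucose against 1556 ± 324 in aCSF (mean ± SD, 6 libraries each). The aCSF libraries held 1636, 1413, 1189, 1440.4, 2145 and 1514, and the L-fucose libraries 1501, 1415, 1208, 1339.8, 1255 and 1352. The L-fucose group lay inside the aCSF range, with 5 of 6 libraries below the aCSF median, and aCSF 5 was the highest of the 12. The log2 fold change was -0.19 (interval -0.43 to 0.05, limma adjusted p 0.851), and it was -0.07 without aCSF 5 and 6 and -0.09 without aCSF 5 alone. Nadk2 (ENSMUSG00000022253) is on chromosome 15 from 9071260 to 9110891.

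Aco1 is the cytosolic aconitase, which without its iron-sulfur cluster becomes iron regulatory protein and binds messenger RNAs of iron metabolism. It had the same mean of 874 in both groups, with an SD of 69.0 in L-fucose and 121 in aCSF (6 libraries each). Values were 955.6, 911.7, 892.1, 978.1, 641.7 and 867.5 in aCSF and 844.3, 936.0, 976.6, 808.4, 868.0 and 809.1 in L-fucose. The value of aCSF 5 was the lowest of the 12, and the other 11 overlapped closely. The log2 fold change was 0.01 (interval -0.22 to 0.24, limma adjusted p 0.995) and -0.10 (-0.31 to 0.11) without aCSF 5 and 6. Aco1 (ENSMUSG00000028405) is on chromosome 4 from 40143081 to 40198338.

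Asns makes asparagine from aspartate and glutamine, and its transcript is a textbook readout of amino acid shortage and endoplasmic reticulum stress through the transcription factor ATF4. Its promoter is shown because these letters are the known response element. The window runs from 250 bases before to 20 bases after the RefSeq start, at chr6:7693190-7693459 in GRCm38.p6, read on the minus strand, and capitals mark TGATGAAAC, the amino acid response element, and GTTACA, the second element of this promoter.
Asns: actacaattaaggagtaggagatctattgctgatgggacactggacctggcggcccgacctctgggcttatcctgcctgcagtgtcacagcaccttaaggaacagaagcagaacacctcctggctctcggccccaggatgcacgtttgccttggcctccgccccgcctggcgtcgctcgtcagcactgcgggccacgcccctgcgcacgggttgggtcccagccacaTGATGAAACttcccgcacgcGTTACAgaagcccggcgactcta
The elements lie 11 bases apart. GTTACA, at bases 248 to 253 of the window, spans the RefSeq start. The gene as annotated in GENCODE reaches further upstream, to 7693254, and takes in both elements. TGATGAAAC was found in 0.231% of the 32851 windows, GTTACA in 7.58% and both in 0.0244%. Of the 6 members searched, Asns and Aass held GTTACA, and Asns alone held the looser form TGATGNAA, which 3.69% of windows hold.

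Asns was abundant and nearly level between groups, at 4144 ± 364 in L-fucose against 4166 ± 347 in aCSF (mean ± SD, 6 libraries each). The aCSF libraries held 3899, 3700.3, 4204, 4109, 4424 and 4657, and the L-fucose libraries 4559, 3520.1, 4170.4, 3976, 4253 and 4389. The interval of its log2 fold change of -0.01 ran from -0.19 to 0.17 (limma adjusted p 0.993), and without aCSF 5 and 6 the value was 0.06 (-0.13 to 0.24). Asns (ENSMUSG00000029752) is on chromosome 6 from 7675169 to 7693254.

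Aass, the bifunctional enzyme of the first steps of lysine breakdown through saccharopine, had 173 ± 49.1 in L-fucose against 157 ± 43.9 in aCSF (mean ± SD, 6 libraries each). The aCSF libraries held 215.4, 155.2, 109.5, 138.0, 204.2 and 119.9, and the L-fucose libraries 130.2, 180.6, 104.2, 173.2, 216.1 and 232.7. Both groups spread about as widely, with coefficients of variation of 27.9% in aCSF and 28.4% in L-fucose. The log2 fold change was 0.13 (interval -0.33 to 0.59, limma adjusted p 0.951) and 0.15 without aCSF 5 and 6. Aass (ENSMUSG00000029695) is on chromosome 6 from 23072173 to 23132986.

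**Figure D4:**
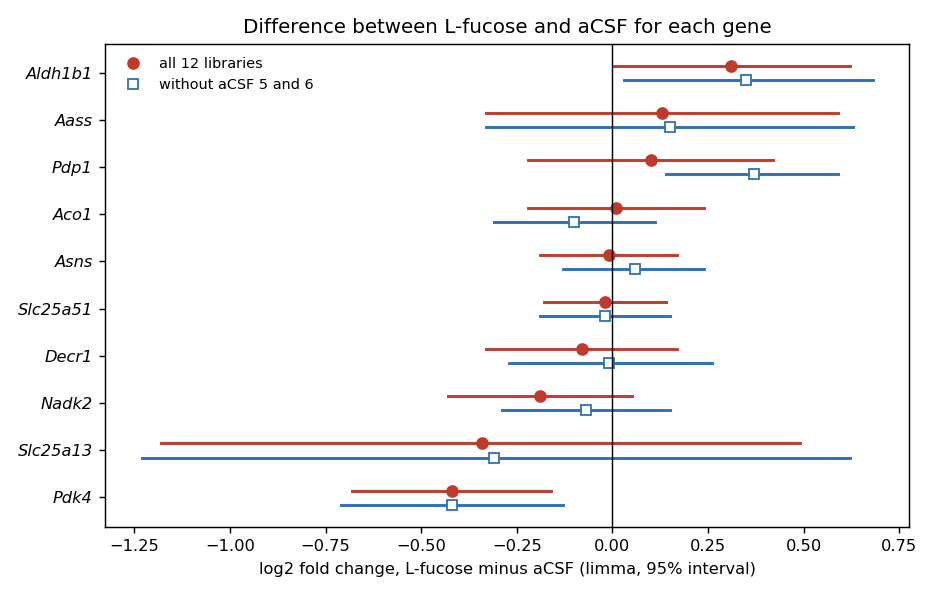
Log2 fold change of each gene, L-fucose minus aCSF, with the 95% interval from limma, for all 12 libraries (red circles) and without aCSF 5 and 6 (blue open squares). The interval of Pdk4 lies below 0 in both fits, that of Pdp1 lies above 0 only without aCSF 5 and 6, and that of Slc25a13 is the widest. Intervals are not adjusted for the number of tested rows, and no gene shown passed the adjusted threshold in either fit. Fold changes of Pdk4, Aldh1b1 and Asns were known when the genes were chosen, so their intervals are a description.

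For 9 of the 10 genes, all but Slc25a13, the interval lay within 1 log2 unit either way, as for 64.3% of all tested rows and 80.5% of those in the 4 stretches. For 6 genes it lay within 0.5 log2 units (32.3% and 54.7%). These were Pdp1, Decr1, Slc25a51, Aco1, Asns and Nadk2.

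Other genes of the 4 stretches, from a metabolic list that also held genes such as the scaffold Sdcbp, gave values of similar size. Of 30 listed, 4 lay outside the stretches, 3 were below the filter (Baat, Agxt2 and Cyp7a1) and 23 were tested. Their fold changes, 11 positive and 12 negative, ranged from -0.46 to 0.41 around a median of -0.01. With limma 0 were higher and 0 lower at the adjusted threshold, and 2, Lyrm2 and Sdcbp, had an unadjusted p under 0.05, where 5.96% of all tested rows had one. Without aCSF 5 and 6 the signs were 16 positive and 7 negative, with a median of 0.06 and again 0 past the threshold. The smallest p with positive values were those of Lyrm2, a small protein of the mitochondrial LYR family, at 0.41 (381 ± 30.7 in L-fucose, 289.6 ± 53.3 in aCSF), Sdhaf3, an assembly factor of succinate dehydrogenase, at 0.23, and Ndufb6, a complex I subunit, at 0.21. The smallest with negative values were those of Sdcbp, the scaffold syntenin, at -0.20 (7074 ± 534 in L-fucose, 8151 ± 1027 in aCSF), the paraoxonase Pon3 at -0.46 and the complex I assembly factor Ndufaf6 at -0.21. With aCSF 5 and 6 left out, Lyrm2 was at 0.33, Sdhaf3 at 0.14, Ndufb6 at 0.30, Sdcbp at -0.09, Pon3 at -0.48 and Ndufaf6 at 0.02. Ndufb6 shares 39% of its exonic bases with Smim27 on the other strand, so its value is uncertain without a stated strand setting. The adjusted p of these 6 genes lay between 0.827 and 0.888.

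The wider pathways could not be followed by name. The 9 lists, of pyruvate dehydrogenase and its regulators, fatty acid oxidation, shuttles, NAD and NADP, the citrate cycle, lysine degradation, the amino acid response, genes that rise with Pdk4 in fasting and aldehyde dehydrogenases, held 122 genes. Rows of 56 were tested, and only the 10 genes described here lay in the 4 stretches. At the adjusted limma threshold 0 of the 56 were higher and 0 lower, as 0 of all 10787 tested rows passed. List medians lay between -0.14 and 0.19, and they include rows outside the stretches, whose names are not reliable. The pyruvate dehydrogenase list had 6 tested rows of 14, 3 with positive and 3 with negative values, and the names of its 4 tested rows outside the stretches are not reliable.

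The genes whose level followed Pdk4 most closely were sought among 288 tested, named genes of the stretches. Likeness was the Pearson r of log2(value + 1) over the 12 libraries after the mean of each group was subtracted, as a description of libraries that share depth and tissue makeup. They were Gem, a small GTPase induced by activity, at 0.89, Ankrd33b at 0.79, the Src-family kinase Lyn at 0.76, the protease inhibitor Tfpi2 at 0.74 and Zfp622 at 0.71. These remained between 0.81 and 0.93 without aCSF 5 and 6. Pdp1 was followed by the fucosyltransferase Fut9 at 0.96, Zfr at 0.91, the complex I assembly factor Ndufaf4 at 0.91, Mtdh at 0.90 and Rab2a at 0.90. Without aCSF 5 and 6 these were 0.86, 0.65, 0.77, 0.65 and 0.56 in the same order, lower for each of the 5 genes. Pdk4 and Pdp1 themselves had r = -0.07, and the 45 pairs among the 10 genes ran from -0.72 (Pdp1 and Aco1) to 0.66 (Pdp1 and Decr1) with a median of -0.06. With aCSF 5 and 6 left out, Pdp1 and Aco1 had -0.48 and Pdp1 and Decr1 had 0.72. Aco1 and Nadk2 went from -0.69 to 0.01.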

How the data were processed

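Poly-A RNA libraries of mouse brain sections were sequenced on an Illumina platform, per the labels' protocols. Tools named in the submitters' processing notes are featureCounts 2.0.3, DESeq2 2.11.40.8, HISAT2 2.2.1 and Trimmomatic 0.39, with mm10 as the build. For annotation, strand setting and filters, the sources used here give nothing. What the authors deposited is a signal of whole reads per gene scaled by a single factor in each library, as found from the values: in every library 100% were whole multiples of 1 read within 0.01 reads. Reads were recovered on that step.

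Symbols (52073 of 56923 rows) and positions came from GENCODE M21 (GRCm38). Rows that reached 10 in 6 or more libraries entered limma 3.58.1 (R 4.3.3) on log2(value + 1) with an intensity trend. DESeq2 1.42.0, limma-voom and edgeR 4.0.16 (TMM, RLE and upper-quartile scaling) were run on the recovered reads as alternatives, beside other pseudocounts and filters, a block for the replicate number, and libraries left out. The fits were also run on simulated counts, with the same spread setting for all rows and no libraries that stand apart. That setting is simpler than these data, so it does not show how well the fits detect changes here. The sample titles use the same numbers, WT1 to WT6, in both groups and do not say whether equal numbers mark the same animal. Same-numbered libraries had deviations correlated between -0.168 and 0.17, which cannot exclude pairing. The main fit took no pairs, and the fit with a replicate block called 0 rows.

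Members, lists, tests and the alternative without aCSF 5 and 6 were chosen with earlier results of these data known. The rule for named genes took all 10 members and the 3 genes of the metabolic list with the smallest p each way. It also took the 5 tested genes of the stretches most like Pdk4 and Pdp1, leaving out predicted models. Figures used Python 3.11.15 and matplotlib 3.10.9.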

Additional observations from a re-analysis of the deposited data

Results flagged for a closer look

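Examined were 68 groups of 6 values, from 10 members, 23 genes of the metabolic list and the Pdk4 to Pdp1 ratio in both conditions. In 4 groups an extreme library was set off from the remaining 5, which chance produces in about 5% of groups. In L-fucose 4 Aldh1b1 stood at 367.7, while the rest of its group held 239.3 to 281.3, and its log2 fold change without that library was 0.23. Aco1 was 641.7 in aCSF 5 against 867.5 to 978.1 in the other aCSF libraries, and its value without it was -0.08. Sdhaf3 was 230.0 in aCSF 5 against 314.8 to 365.5. Cmbl, a hydrolase gene, was 480.8 in L-fucose 4 against 286.0 to 357.0.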

How the results depend on the processing

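Each member was recomputed under 23 alternatives, and none passed its adjusted threshold in any of them. Pdk4 kept its sign in all 23, between -0.50 and -0.36, with adjusted p between 0.326 and 0.985. Its value with a replicate block was -0.42 (limma adjusted p 0.901), Pdp1 was then at 0.10 and the ratio was not refitted, and the block changed no call. Rows past the adjusted threshold numbered 1 with DESeq2 and 0 in the other fits, also when single libraries were left out (0 to 0). Of the 10787 rows, those at an unadjusted p under 0.05 ranged from 433 (without L-fucose 4) to 1210 (without aCSF 5 and 6), and there were 466 of 7093 with the filter of 50 and 1232 of 29235 with no filter. Leaving out single libraries moved Aass between 0.03 and 0.26, Decr1 between -0.15 and -0.03, Nadk2 between -0.26 and -0.09, Pdp1 between -0.02 and 0.21, Slc25a13 between -0.54 and 0.13, Slc25a51 between -0.04 and 0.0034, Aco1 between -0.08 and 0.04, Asns between -0.04 and 0.04 and the Pdk4 to Pdp1 ratio between -0.64 and -0.36. Signs turned without aCSF 4 for Pdp1 and Slc25a51, without L-fucose 5 for Slc25a13, without aCSF 5, L-fucose 2 or L-fucose 3 for Aco1, and without aCSF 5, aCSF 6, L-fucose 2 or L-fucose 4 for Asns. They also turned for Aco1 with edgeR TMM (-6.2e-04), edgeR RLE (-0.0019), DESeq2 (-0.0019) and without aCSF 5 and 6 (-0.10), and for Asns with upper-quartile factors (0.01) and without aCSF 5 and 6 (0.06), so these members have no stable direction. The cause was not tested. The smallest read number behind a member's value was 16, for Slc25a13 in L-fucose 5, whose 12126208 reads are above the median depth.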
